A study of Zea mays with 24 samples.

Results

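ABI5 (ABSCISIC ACID-INSENSITIVE 5) and ABI5-like proteins are transcription factors of the basic leucine zipper (bZIP) family, and 4 of their genes were followed here out of 46430 genes in the expression table. They were taken by gene ID: Zm00001d018178 (bZIP-transcription factor 4, written bZIP4 below), Zm00001d020711, which has no gene name in the table, Zm00001d031790 (bZIP-transcription factor 49, written bZIP49) and Zm00001d042779 (written ABI5). The table describes the first 3 as ABSCISIC ACID-INSENSITIVE 5-like protein 5 and the last as Protein ABSCISIC ACID-INSENSITIVE 5, and it gives all 4 a bZIP domain, as it does for 115 genes in all. The label of the group therefore fits the annotation. The study itself listed these genes as differentially expressed in these same libraries, so their differences below are not independent evidence of its lists.

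In the abscisic acid (ABA) pathway known from Arabidopsis, ABA bound to a PYR/PYL receptor holds back protein phosphatases 2C (PP2C), which frees SnRK2 kinases to phosphorylate bZIP factors of the ABI5 and ABF type. These factors bind ABA-responsive elements in promoters and switch on genes of drying tolerance, among them dehydrins and other late embryogenesis abundant (LEA) proteins. ABI5 itself is best known from seeds and germinating seedlings, while ABF-type factors act in leaves under water shortage.

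Leaf RNA came from 24 maize plants, 3 individual plants in each of 8 groups (2 lines in 4 treatments). For the drought groups, watering stopped once seedlings had reached the fifth leaf stage. Y7-1 is the inbred line Ye478 transformed with the maize gene *ZmPMP3g* behind a constitutive viral promoter, and Y478 is untransformed Ye478. Y7-1 is 1 transgenic line, so the transgene and other features of that line cannot be told apart. The treatments were moderate drought-exogenous ABA, moderate drought, control-exogenous ABA and control. Moderate drought was a pot mix moisture of 40% to 50%, control moisture was 70%, and exogenous ABA was a foliar spray at 15 mg/L. According to the paper, seedlings of the control treatment got a spray of tap water in the same volume. For drought plants without ABA it does not say whether water was sprayed. Leaves were collected 9 days after the mix had dried to 50%, and the labels name Ye478 as the background of all plants. How alike the lines are apart from the insert was not tested.

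The values are FPKM (fragments per kilobase of transcript, scaled by a size for each library). They could be turned back into whole reads, 15762667 to 18428177 in each library. The sizes implied by the values, 13616081 to 19901729, were not the sums of these reads. Y478 control-exogenous ABA replicate 3, for instance, had 18090228 reads and an implied size of 13660486. Leaf identity was clear, since genes described as C4 enzymes of the mesophyll summed to between 3875.9 and 15105 FPKM in the libraries, while 28 genes of seed storage proteins summed to between 0.104 and 8.54 FPKM and 18 of them were at 0 throughout. The library labelled Y7-1 moderate drought replicate 3 went against its label. Of 125 genes read in Y7-1 and hardly in Y478 in the other treatments, 0 reached 1 FPKM in this library. Of 74 genes with the opposite pattern in those treatments, 68 reached 1 FPKM in it. It was kept, and values without it are given beside those it moved most. The gene that the study calls a homolog of *ZmPMP3g*, Zm00001d024778, was at 229 to 342 FPKM in Y7-1 under control and at 195 to 433 FPKM in Y478 under control, so its level did not separate the lines there. Under moderate drought it was at 572 and 684 FPKM in Y7-1, and at 3435 FPKM in the library that went against its label, against 2212 to 3233 FPKM in Y478.

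The levels of the 4 genes spanned a wide range, and each had an order of its own across the groups. FPKM is scaled by gene length, so levels of different genes can be set side by side as an approximation. How reads shared by similar genes were counted is not known, which also limits the shares given below. Over all 24 libraries the median was 51.7 FPKM for bZIP4, 24.5 FPKM for Zm00001d020711, 8.61 FPKM for bZIP49 and 0.423 FPKM for ABI5. All 4 passed the minimum for testing, which was 0.5 FPKM in at least 3 of 24 libraries. ABI5 reached 0.5 FPKM in 11 libraries and the other 3 genes did so in all 24. The only library labelled Y7-1 among these 11 was the one that went against its label, and the rest were of Y478. ABI5 was therefore tested only because of its level in libraries with the Y478 pattern.

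**Figure D1:**
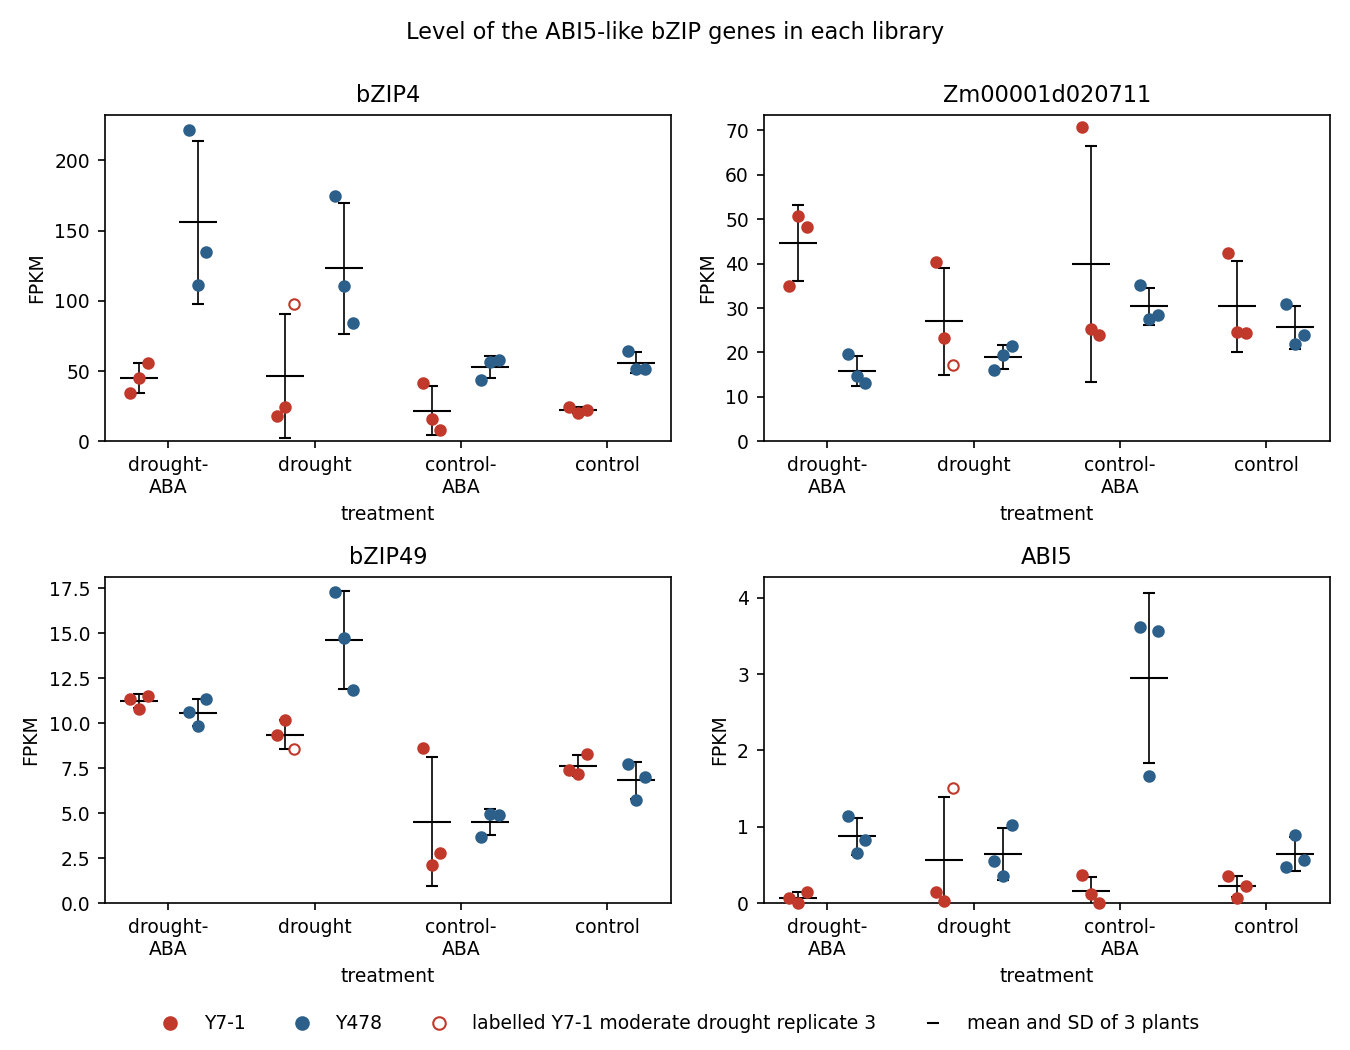
FPKM (y axis, 1 panel per gene, each from 0 and with its own scale) by treatment, with Y7-1 in red beside Y478 in blue. Points are single plants, the open point is the library labelled Y7-1 moderate drought replicate 3, and black marks are the mean and SD of 3 plants. bZIP4 in Y478 reached 222 FPKM under moderate drought-exogenous ABA, and ABI5 stayed at or under 0.366 FPKM in the other Y7-1 libraries.

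bZIP4, on chromosome 5 from 215861734 to 215871643 on the minus strand in the table's coordinates, was lower in Y7-1 than in Y478. In each Y478 group it had the highest mean of the 4. In Y7-1, Zm00001d020711 had the higher mean under control (30.4 against 22.3 FPKM) and control-exogenous ABA (40.0 against 21.9 FPKM). Under moderate drought-exogenous ABA their Y7-1 means were 44.7 and 45.0 FPKM. Under moderate drought bZIP4 led in Y7-1 with all libraries (46.6 against 27.0 FPKM). Without the library that went against its label Zm00001d020711 led there (31.8 against 21.2 FPKM). Under moderate drought-exogenous ABA bZIP4 stood at 34.2, 45.1 and 55.7 FPKM in the Y7-1 plants, against 222, 112 and 134 FPKM in the Y478 plants. Under moderate drought it stood at 18.1, 24.3 and 97.4 FPKM in Y7-1, where the last value is the library that went against its label, against 175, 111 and 84.3 FPKM in Y478. Under control-exogenous ABA it stood at 41.7, 15.7 and 8.13 FPKM in Y7-1, against 43.7, 56.5 and 57.8 FPKM in Y478. Under control it stood at 24.4, 20.3 and 22.3 FPKM in Y7-1, against 64.4, 51.6 and 51.8 FPKM in Y478. Every Y7-1 plant was below every Y478 plant of its treatment except in moderate drought, where the groups overlapped through that 1 library. From highest to lowest mean, the order was Y478 moderate drought-exogenous ABA, Y478 moderate drought, Y478 control, Y478 control-exogenous ABA, Y7-1 moderate drought, Y7-1 moderate drought-exogenous ABA, Y7-1 control and Y7-1 control-exogenous ABA. Of neighbours in this order, only Y478 moderate drought from Y478 control, and Y7-1 moderate drought-exogenous ABA from Y7-1 control, had ranges that did not overlap. Without the library that went against its label the mean of Y7-1 moderate drought was 21.2 FPKM in place of 46.6 FPKM, below the 21.9 FPKM of Y7-1 control-exogenous ABA, and the group was last in the order.

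Zm00001d020711, on chromosome 7 from 129697273 to 129712944 on the plus strand, leaned the other way between the lines. Under moderate drought-exogenous ABA it stood at 35.0, 50.8 and 48.2 FPKM in Y7-1, against 19.6, 14.6 and 13.2 FPKM in Y478. Every Y7-1 plant of that treatment was above every Y478 plant. Under moderate drought it stood at 40.4, 23.2 and 17.3 FPKM in Y7-1, against 16.0, 19.5 and 21.4 FPKM in Y478. Under control-exogenous ABA it stood at 70.6, 25.3 and 24.03 FPKM in Y7-1, against 35.1, 27.4 and 28.5 FPKM in Y478. Under control it stood at 42.3, 24.6 and 24.3 FPKM in Y7-1, against 31.0, 21.9 and 23.99 FPKM in Y478. The lines overlapped in these 3 treatments, and in each of them the first Y7-1 plant was the highest. Under moderate drought the overlap came from the library that went against its label, at 17.3 FPKM, and the other Y7-1 plants were above all Y478 plants. In the order of group means with all libraries, the only neighbours with separate ranges were Y478 control and, below it, Y478 moderate drought.

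bZIP49, on chromosome 1 from 201947175 to 201952222 on the plus strand, had ranges that overlapped between the lines except under moderate drought. Under moderate drought-exogenous ABA it stood at 11.4, 10.8 and 11.5 FPKM in Y7-1, against 10.6, 9.85 and 11.3 FPKM in Y478. Under moderate drought it stood at 9.35, 10.2 and 8.57 FPKM in Y7-1, against 17.3, 14.7 and 11.8 FPKM in Y478. The 8.57 FPKM is the library that went against its label. With or without it, the Y7-1 values were below all Y478 values under moderate drought. The lines overlapped in the other 3 treatments. Under control-exogenous ABA it stood at 8.66, 2.12 and 2.82 FPKM in Y7-1, against 3.71, 4.94 and 4.90 FPKM in Y478. Under control it stood at 7.42, 7.21 and 8.32 FPKM in Y7-1, against 7.74, 5.71 and 7.02 FPKM in Y478. The highest mean was that of Y478 moderate drought and the lowest that of Y478 control-exogenous ABA. Neighbours in the order of means had separate ranges between Y478 moderate drought and Y7-1 moderate drought-exogenous ABA, and between Y7-1 moderate drought and Y7-1 control.

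ABI5, on chromosome 3 from 179446822 to 179448624 on the minus strand, was read little in any leaf, and its values rest on 0 to 82 reads per library. Under moderate drought-exogenous ABA it stood at 0.0709, 0 and 0.146 FPKM in Y7-1, against 1.14, 0.656 and 0.833 FPKM in Y478. Under moderate drought it stood at 0.148, 0.0362 and 1.51 FPKM in Y7-1, the last in the library that went against its label, against 0.548, 0.357 and 1.02 FPKM in Y478. The Y7-1 plants were below the Y478 plants in the first of these treatments and, apart from that 1 library, in the second. Under control-exogenous ABA it stood at 0.366, 0.126 and 0 FPKM in Y7-1, against 3.62, 1.66 and 3.56 FPKM in Y478. Under control it stood at 0.361, 0.0740 and 0.226 FPKM in Y7-1, against 0.479, 0.892 and 0.567 FPKM in Y478. The 3 Y478 control-exogenous ABA plants were the 3 highest of all 24, and in the order of group means only this group was separate from the next one. With exact Poisson 95% intervals, which cover counting error only, 0.366 FPKM in Y7-1 allowed 0.168 to 0.696 and 3.62 FPKM in Y478 allowed 2.88 to 4.49. For the libraries with 0 reads, a limit of 3 reads is 0.155 FPKM for the Y7-1 control-exogenous ABA plant and 0.115 FPKM for the Y7-1 moderate drought-exogenous ABA plant. The two-sided Poisson interval, which is wider, reached 0.191 FPKM and 0.142 FPKM for these plants.

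The first question was how the genes differed between the transformed and the untransformed line. Averaged over the 4 treatments, bZIP4 and ABI5 were lower in Y7-1 than in Y478 and Zm00001d020711 was higher, so 3 of 4 members passed the test (limma, adjusted p under 0.05), where 48.9% of all tested genes passed. Differences are on the scale of log2(FPKM + 0.5), which understates the change of a gene as low as ABI5. ABI5 had met the minimum for testing through libraries with the Y478 pattern, so its line difference is not independent of that minimum. The difference, Y7-1 minus Y478, was -1.58 ± 0.26 (SE, 12 plants against 12) for bZIP4, with an adjusted p of 8.26e-05 from limma. It was -1.15 ± 0.20 for ABI5 (adjusted p = 0.000117, limma) and 0.58 ± 0.17 for Zm00001d020711 (adjusted p = 0.0105, limma). For bZIP49 it was -0.14 with a 95% interval from -0.45 to 0.17 (adjusted p = 0.44, limma). Without the library that went against its label the differences were -1.76 for bZIP4, -1.30 for ABI5, 0.65 for Zm00001d020711 and -0.13 for bZIP49, and the same 3 genes passed, where 51.8% of all tested genes did. An exact two-sided permutation test, which exchanged the lines within each treatment over 160000 relabellings, gave p = 3.75e-05 for bZIP4, 0.000513 for ABI5, 0.0127 for Zm00001d020711 and 0.383 for bZIP49. Adjusted over the 12 values tested this way, they were 0.000225, 0.00154, 0.0305 and 0.418. In a bulk leaf sample, fewer cells of a type and less RNA per cell cannot be told apart. The described genes of the bundle sheath summed to 4338.4 to 18907 FPKM in Y7-1 (median 6642.9) and to 6933.4 to 18314 FPKM in Y478 (median 10267), with 0 of 8 tested higher, 4 lower and 2 of its 12 genes at 0 in every library. That is 50% that passed, beside 48.9% of all tested genes. Of phloem genes 4 of 17 were higher and 7 lower (64.7%), with a median sum of 540.24 FPKM in Y7-1, against 392.33 FPKM in Y478. Of epidermis and wax genes 7 of 22 were higher and 1 lower (36.4%), with 223.58 against 192.78 FPKM. Of senescence genes 5 of 19 were higher and 3 lower (42.1%), with 403.9 against 406.7 FPKM. Of mesophyll C4 genes 6 of 30 were higher and 11 lower (56.7%), with 8781.1 against 9534.5 FPKM. Of 2 tested seed storage genes 0 were higher and 2 lower, with 0.958 against 4.11 FPKM. The part of these genes in the differences was not tested.

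Within single treatments the differences of these 3 genes had the same directions with wider errors. These comparisons use the same groups as the drought and ABA comparisons given further on, so they are not independent of them. Under moderate drought-exogenous ABA 3 of 4 members passed, where 28.1% of all tested genes did: bZIP4 at -1.75 ± 0.52 (adjusted p = 0.0185, limma), ABI5 at -1.26 ± 0.39 (adjusted p = 0.0239, limma) and Zm00001d020711 at 1.47 ± 0.35 (adjusted p = 0.00537, limma). The mean of Zm00001d020711 was 2.83 times as high in Y7-1 as in Y478 there, and that of bZIP4 was 0.289 times as high. Under control-exogenous ABA 2 of 4 passed, where 22% of all tested genes did: ABI5 at -2.35 ± 0.39 (adjusted p = 0.00055, limma) and bZIP4 at -1.54 ± 0.52 (adjusted p = 0.04, limma). Under moderate drought 0 of 4 passed in limma, where 1.16% of all tested genes did, although 1 had an unadjusted p under 0.05, as 18.7% of all tested genes did. limma-voom on the recovered reads called 0 there as well. bZIP4 was at -1.73 ± 0.52 in that comparison (adjusted p = 0.0897, limma). Without the library that went against its label bZIP4 was at -2.46 and passed (adjusted p = 0.00159, limma, 2 plants against 3), and 12.8% of all tested genes passed. ABI5 was at -0.32 with that library (adjusted p = 0.697, limma) and at -0.91 without it (adjusted p = 0.0713, limma).

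Under control 0 of 4 members passed in limma, where 12.2% of all tested genes did, 1 had an unadjusted p under 0.05, as 27.2% of all tested genes did, and limma-voom called 0. bZIP4 was at -1.30 ± 0.52 (adjusted p = 0.11, limma) with ranges that did not overlap, and ABI5 was at -0.67 ± 0.39 (adjusted p = 0.283, limma). Leaving out the library that went against its label, which is in neither group, did not change this value of bZIP4, and it then passed, since the spread is estimated from all groups (adjusted p = 0.0384, limma). The difference of bZIP49 under moderate drought, at -0.60 with a 95% interval from -1.22 to 0.02, did not pass (adjusted p = 0.281, limma). Under moderate drought-exogenous ABA the calls of bZIP4 and ABI5 were lost on leaving out single plants, down to 1 of 4 members without replicate 1 of either line, while that of Zm00001d020711 held. Under control-exogenous ABA that of bZIP4 was lost without any 1 of 5 of the 6 plants (adjusted p = 0.0667 to 0.191, limma) and that of ABI5 held. All 3 calls of the average over treatments held with each of the 24 libraries left out in turn.

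**Figure D2:**
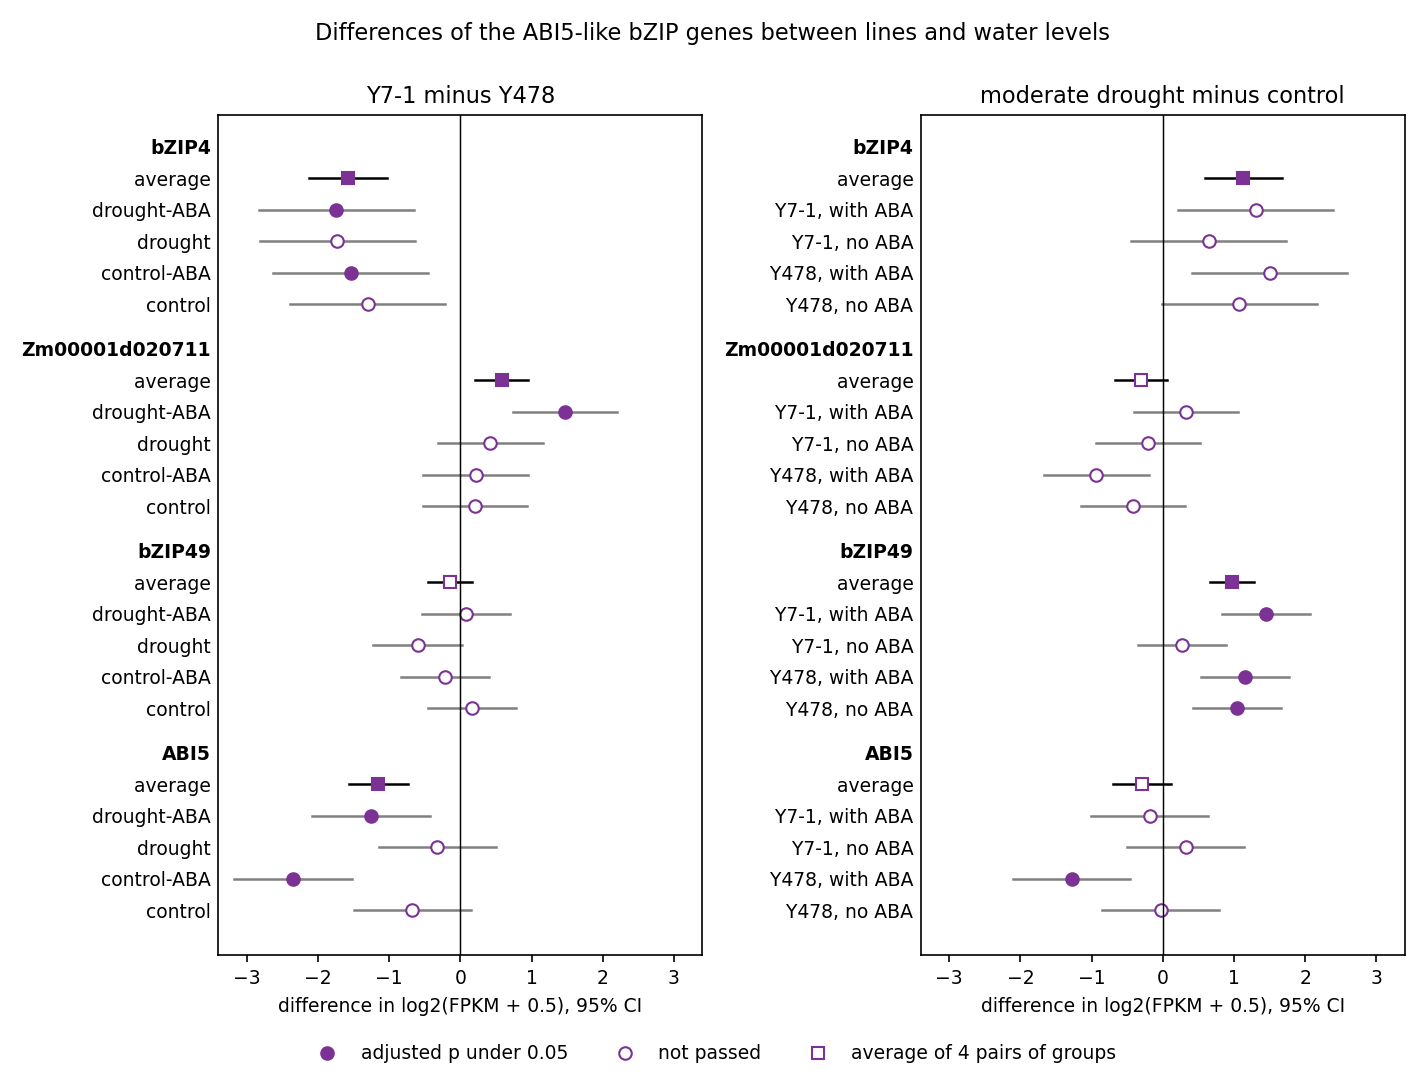
Differences in log2(FPKM + 0.5) between the lines (left, Y7-1 minus Y478) and between water levels (right, moderate drought minus control) with 95% confidence intervals from limma, for each gene. Filled marks passed an adjusted p under 0.05, open marks did not, and squares are averages over 4 pairs of groups. bZIP4 lies left of 0 in all 5 rows on the left and right of 0 in all 5 rows on the right, where its Y7-1 moderate drought row was at -0.08 without the library that went against its label.

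The second question was how the genes responded to moderate drought. Averaged over lines and ABA treatments, bZIP4 and bZIP49 were higher under moderate drought than at control moisture, and 2 of 4 members passed, where 27.9% of all tested genes did. bZIP4 rose by 1.13 ± 0.26 on the log2 scale (12 plants against 12, adjusted p = 0.00319, limma) and bZIP49 rose by 0.98 ± 0.15 (adjusted p = 9.73e-05, limma). Zm00001d020711 was at -0.31 with an interval from -0.68 to 0.06 (adjusted p = 0.204, limma), and ABI5 was at -0.29 with an interval from -0.71 to 0.12 (adjusted p = 0.288, limma). The exact permutation test gave p = 0.000387 for bZIP4, 1.25e-05 for bZIP49, which is the smallest value it can give, 0.134 for Zm00001d020711 and 0.215 for ABI5. Without the library that went against its label bZIP4 was at 0.95 and bZIP49 at 0.99, and both passed. ABI5 then also passed, at -0.44 (adjusted p = 0.0354, limma), so that 3 of 4 did, where 26.9% of all tested genes did. The summed level of the described mesophyll C4 genes ran from 3875.9 to 9505.3 FPKM under moderate drought (median 6812.1), against 8447 to 15105 FPKM at control moisture (median 10981), with 4 of 30 tested higher, 10 lower and 2 of its 37 genes at 0 in every library. The bundle sheath genes ran from 4338.4 to 12165 FPKM under moderate drought (median 6962.8), against 5931.3 to 18907 FPKM at control moisture (median 10611), with 0 of 8 higher and 4 lower. Epidermis and wax genes had a median sum of 169.63 FPKM under moderate drought, against 231.36 FPKM at control moisture, with 3 of 22 higher and 9 lower. Seed storage genes had a median sum of 4.15 FPKM under moderate drought, against 1.11 FPKM at control moisture, with 1 of 2 tested higher. Of phloem genes 6 of 17 were higher and 2 lower (47.1%), and of senescence genes 4 of 19 were higher and 2 lower (31.6%). The shares that passed were 46.7% for mesophyll C4, 50% for bundle sheath and 54.5% for epidermis and wax genes. These stand beside 27.9% of all tested genes. The part of these genes in the differences was not tested.

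In Y478 without ABA, 1 of 4 members passed, where 5.98% of all tested genes did. This was bZIP49, at 1.04 ± 0.30 (adjusted p = 0.0444, limma) and a mean 2.14 times as high under moderate drought as under control. bZIP4 was at 1.07 ± 0.52 with separate ranges, a mean 2.2 times as high, and did not pass (adjusted p = 0.242, limma). The call of bZIP49 was lost with a pseudocount of 0.1 (adjusted p = 0.054, limma) and without a filter on low genes (adjusted p = 0.0595, limma). It was also lost without any 1 of 5 of the 6 plants (adjusted p = 0.0891 to 0.197, limma). In Y478 with ABA, moderate drought-exogenous ABA against control-exogenous ABA, 2 of 4 members passed, where 9.66% of all tested genes did. bZIP49 rose by 1.15 ± 0.30 (adjusted p = 0.0186, limma) and ABI5 fell by 1.28 ± 0.39 (adjusted p = 0.0457, limma). Both calls were lost without replicate 1 or 3 of moderate drought-exogenous ABA or replicate 1 of control-exogenous ABA, and 4 alternatives lost that of ABI5, among them limma-voom (adjusted p = 0.143). bZIP4 was at 1.51 ± 0.52 (adjusted p = 0.0741, limma), and passed without the library that went against its label (adjusted p = 0.023, limma), although that library is in neither group. Zm00001d020711 was at -0.93 ± 0.35 with separate ranges (adjusted p = 0.0999, limma).

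In Y7-1 without ABA 0 of 4 members passed in limma, where 0.713% of all tested genes did, and 0 had an unadjusted p under 0.05, where 17% of all tested genes did, with 0 called by limma-voom. bZIP4 was at 0.65 ± 0.52 there with the library that went against its label and at -0.08 without it, so the sign rests on that library. bZIP49 was at 0.28 ± 0.30 (adjusted p = 0.679, limma), although its 3 Y7-1 moderate drought libraries were all above the 3 Y7-1 control libraries. In Y7-1 with ABA 1 of 4 members passed, where 11.8% of all tested genes did. bZIP49 rose by 1.45 ± 0.30 (adjusted p = 0.00467, limma) and had a mean 2.48 times as high under moderate drought-exogenous ABA as under control-exogenous ABA. The call was lost when only these 6 libraries were fitted (adjusted p = 0.178, limma). bZIP4 was at 1.30 ± 0.52 (adjusted p = 0.111, limma), and passed without the library that went against its label (adjusted p = 0.0411, limma).

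The drought response was not shown to differ between the lines for any member. In the average over ABA treatments, 0 of 4 members passed the interaction test in limma, where 0.542% of all tested genes did, 1 had an unadjusted p under 0.05, where 14.3% of all tested genes did, and limma-voom called 0. For bZIP4 the difference in response, Y7-1 minus Y478, was -0.32 with an interval from -1.41 to 0.78 (adjusted p = 0.836, limma), and -0.68 without the library that went against its label. Of the interactions within 1 ABA treatment, that of Zm00001d020711 with ABA was 1.26 with an interval from 0.22 to 2.29 and did not pass (adjusted p = 0.366, limma). It was the 1 member of 4 with an unadjusted p under 0.05 there, where 10.9% of all tested genes had one and 0.0292% passed. ABI5 had one too when the library that went against its label was left out (adjusted p = 0.287, limma). Without ABA 0 of 4 members had an unadjusted p under 0.05, where 8.28% of all tested genes had one and 0.00834% passed. limma-voom called 0 in both. These single interactions were chosen after the data had been seen. The drought response with and without ABA, averaged over the lines, also gave 0 of 4 members that passed in limma or limma-voom, where 1.02% of all tested genes passed in limma. An unadjusted p under 0.05 was reached by 2 members, bZIP49 and ABI5, and by 17.1% of all tested genes. When the library that went against its label was left out, neither of them reached it (adjusted p = 0.321 and 0.326, limma) and bZIP4 did (adjusted p = 0.271, limma). bZIP49 was at 0.64 with an interval from 0.02 to 1.26 (adjusted p = 0.273, limma).

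The third question was what the ABA spray changed. No member passed in limma in any of the 4 pairs of groups or in their average. Of all tested genes, 0.0375% passed in Y7-1 at control moisture, 0.163% in Y7-1 under moderate drought, 0.00417% in each of the Y478 comparisons and 0.0209% in the average. An unadjusted p under 0.05 was reached by 1 member in each Y7-1 comparison, where 11.8% and 15.1% of all tested genes reached it, by 1 in Y478 at control moisture, where 9.26% did, and by 0 in Y478 under moderate drought, where 9.45% did. In the average 1 member reached it, where 12% of all tested genes did, and limma-voom called 0 in all 5 comparisons. That member was bZIP49, at -0.41 ± 0.15 (adjusted p = 0.276, limma), and the exact permutation test gave p = 0.0228 for it, or 0.0457 adjusted over its 12 values. The averages of the others were 0.06 for bZIP4 with an interval from -0.48 to 0.61, 0.26 for Zm00001d020711 from -0.11 to 0.62, and 0.27 for ABI5 from -0.14 to 0.68. The average of ABI5 without the library that went against its label was 0.41 with an interval from 0.10 to 0.73 and an unadjusted p of 0.0125, and it did not pass (adjusted p = 0.24, limma). That of bZIP4 was then 0.24 with an interval from -0.20 to 0.69.

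The largest ABA value among the members was that of ABI5 in Y478 at control moisture. Its mean was 4.56 times as high under control-exogenous ABA as under control. All 3 plants with ABA, at 82, 44 and 69 reads, were above the 3 without ABA, at 12, 21 and 13 reads. The difference was 1.55 ± 0.39 with an unadjusted p of 0.000907 in limma, and an adjusted p of 0.222 over 23978 genes. It passed when limma weighted the libraries (adjusted p = 5.93e-05). In Y7-1 the same 2 treatments had 9, 3 and 0 reads under control-exogenous ABA, against 10, 2 and 6 reads under control. The difference between the lines in this response was -1.68 ± 0.56 and did not pass (adjusted p = 0.968, limma). ABI5 was the 1 member of 4 with an unadjusted p under 0.05 in that interaction, where 5.03% of all tested genes had one, 0% passed and limma-voom called 0. In the average ABA response the difference between the lines was -1.31 ± 0.39 for ABI5, again the 1 member with an unadjusted p under 0.05, and it did not pass (adjusted p = 0.299, limma). Of all tested genes 10.6% had such a p there and 0.025% passed, and limma-voom called 0 of the 4.

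bZIP49 showed the one response to ABA with separate ranges of opposite direction. Its 3 Y7-1 plants under moderate drought-exogenous ABA were above the 3 under moderate drought, at 0.25 ± 0.30 on the log2 scale. Its 3 Y478 plants under moderate drought-exogenous ABA were below the 3 under moderate drought, at -0.43 ± 0.30. Neither passed in limma (adjusted p = 0.734 and 0.698), nor did the difference between them, in which 0 of 4 members passed in limma or limma-voom and 0% of all tested genes passed in limma. Zm00001d020711 alone of the 4 had an unadjusted p under 0.05 in that difference, where 10.2% of all tested genes did, and it had none without the library that went against its label (adjusted p = 0.782, limma). At control moisture bZIP49 was at -0.92 ± 0.30 in Y7-1 (adjusted p = 0.217, limma) and -0.55 ± 0.30 in Y478 (adjusted p = 0.616, limma). Without the first Y7-1 control-exogenous ABA plant, the Y7-1 value was -1.46 and passed (adjusted p = 0.00441, limma). Zm00001d020711 was at 0.79 ± 0.35 for the spray under moderate drought in Y7-1, with an unadjusted p of 0.0369 (adjusted p = 0.295, limma). When the library that went against its label was left out it was at 0.52 with an unadjusted p of 0.185 (adjusted p = 0.684, limma). bZIP4 was at 0.33 ± 0.52 in the same comparison, and at 1.05 without that library (adjusted p = 0.444, limma).

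Because the members moved in different directions, their shares of the summed FPKM of all 4 genes differed between groups. bZIP4 held 44.3% ± 3.4 of the sum in Y7-1, against 84.5% ± 3.0 in Y478, under moderate drought-exogenous ABA (SD, n = 3 each). Under moderate drought it held 48.9% ± 26.4 in Y7-1, against 77.0% ± 6.4 in Y478. The Y7-1 plants were at 26.7%, 42.0% and 78.1%, the last in the library that went against its label, and without it the mean was 34.4%. Under control-exogenous ABA it held 31.3% ± 7.1 in Y7-1, against 58.0% ± 6.4 in Y478, and under control 37.4% ± 4.0 in Y7-1, against 62.9% ± 1.3 in Y478. Zm00001d020711 held 44.2% ± 3.0 in Y7-1, against 8.90% ± 1.59 in Y478, with both drought and the spray. bZIP49 held mean shares from 4.98% to 12.9% in the 8 groups, and 15.7% in Y7-1 under moderate drought without the library that went against its label. ABI5 held from 0.0715% to 3.27%, with its highest share in Y478 under control-exogenous ABA.

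**Figure D3:**
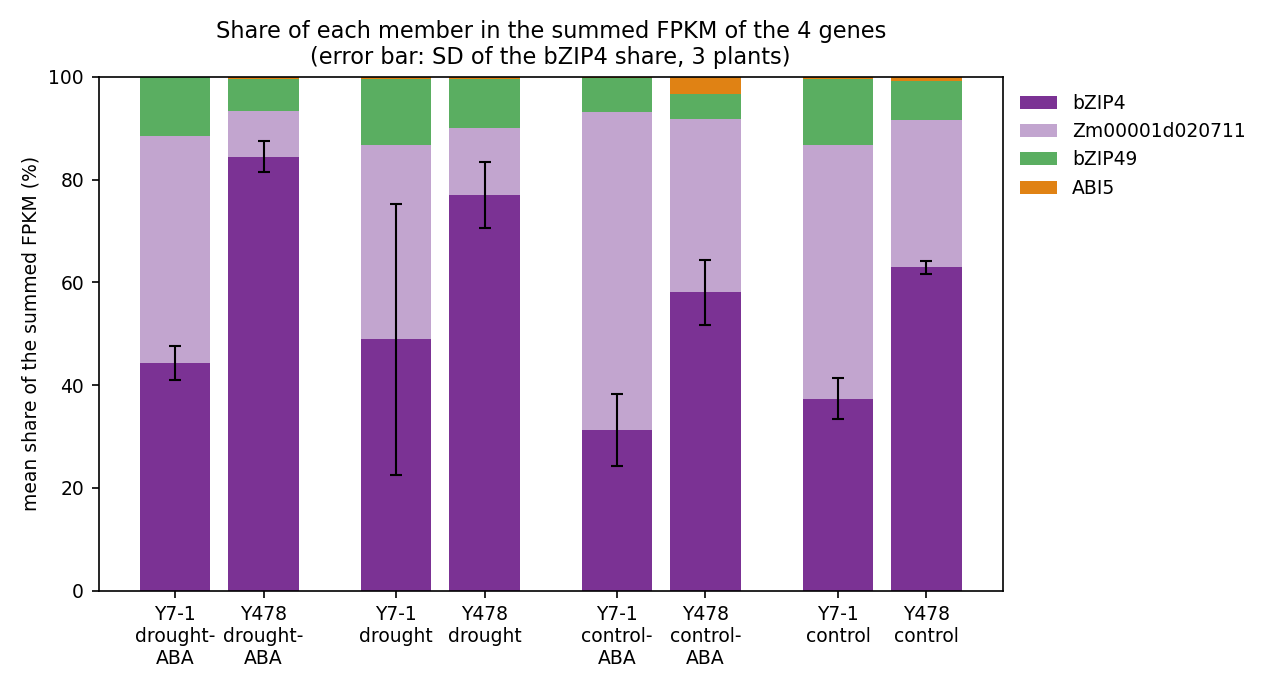
Mean share (y axis, %) of each gene in the summed FPKM of the 4 genes, by line and treatment, with the SD of the bZIP4 share over 3 plants as error bar. bZIP4 took 84.5% of the sum in Y478 under moderate drought-exogenous ABA and 44.3% in Y7-1. The 48.9% of Y7-1 under moderate drought was 34.4% without the library that went against its label.

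Among the 79 tested genes with a bZIP domain, bZIP4 had the second lowest average line difference and the sixth highest average drought difference. Below it in the line ranking was Zm00001d025589, at -2.66. bZIP49 ranked 9 from the top for drought, Zm00001d020711 ranked 8 from the top for the line difference, and ABI5 ranked 9 from the bottom for it. Of the 75 other bZIP genes, 9 were higher and 31 lower in Y7-1 in the average, with a median difference of -0.37, where the median over all tested genes was 0.00. That is 53.3% of them, beside 48.9% of all tested genes, of which 24.6% were higher and 24.3% lower. In the drought average 23 of the 75 were higher and 4 lower, with a median of 0.22, which is 36% of them, beside 27.9% of all tested genes, of which 14.5% were higher and 13.4% lower. The counts of gene lists that follow are to be read beside these shares. Zm00001d042721 (bZIP-transcription factor 95), described as G-box-binding factor 4, rose by 1.66 under drought (adjusted p = 4.18e-06, limma).

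**Figure D4:**
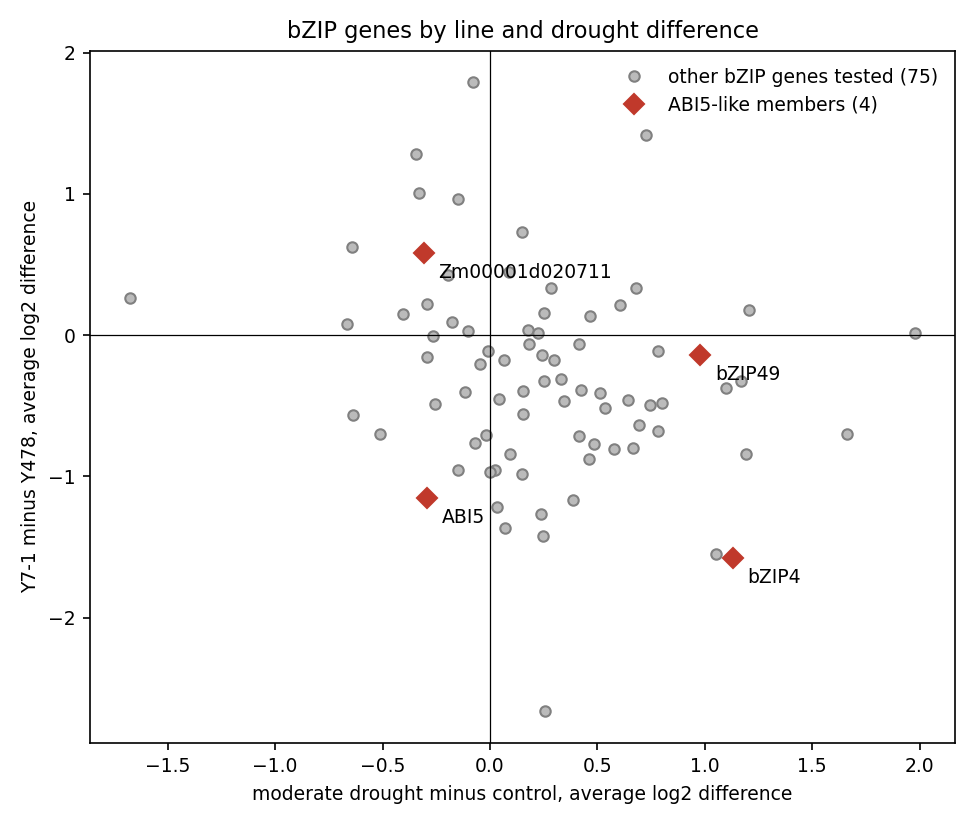
Average drought difference (x axis, moderate drought minus control) and average line difference (y axis, Y7-1 minus Y478) in log2(FPKM + 0.5) for the 79 tested bZIP genes. bZIP4 lies at the lower right, at 1.13 and -1.58, bZIP49 at 0.98 and -0.14, Zm00001d020711 at -0.31 and 0.58, and ABI5 at -0.29 and -1.15.

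The table describes 6 other genes as ABI5 or ABI5-like, of which 5 were tested. In the drought average 3 rose and 0 fell (60%), and in the line average 0 were higher and 2 lower in Y7-1 (40%). Zm00001d050018 (bZIP-transcription factor 68), described like bZIP4 as ABI5-like protein 5, rose by 1.17 ± 0.15 under drought (adjusted p = 2.6e-05, limma) and was at -0.32 between the lines. Its group means under moderate drought-exogenous ABA were 2.46 FPKM in Y7-1 and 3.91 FPKM in Y478. Zm00001d010638 (bZIP-transcription factor 96) rose by 0.41 ± 0.10 under drought. Zm00001d043117 (bZIP-transcription factor 102) was lower in Y7-1 by 0.39 on the log2 scale, at -0.39 ± 0.10, and Zm00001d022550 (bZIP-transcription factor 92) at -0.41 ± 0.12. On the log2(FPKM + 0.5) scale the average line difference of bZIP4 was the largest in size of the 9 tested ABI5-type genes. By the ratio of mean FPKM, Y7-1 over Y478, the order of the genes depended on the treatment. Under control-exogenous ABA, ABI5 was at 0.0557 and bZIP4 at 0.415. With drought and the spray, ABI5 was at 0.0827 and bZIP4 at 0.289. Both of these ABI5 ratios rest on few Y7-1 reads, 12 and 6 in all. Under control, ABI5 was at 0.341 and bZIP4 at 0.399. Under moderate drought, ABI5 was at 0.879 and bZIP4 at 0.378. Without the library that went against its label, the drought ratios were 0.143 for ABI5 and 0.172 for bZIP4. These lists, like the members, were chosen with results of these data known.

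Upstream of the factors, the ABA receptors split under drought, with 4 of 9 tested higher and 3 lower in the average (77.8% passed, beside 27.9% of all tested genes). Zm00001d010445, described as receptor PYL9, rose by 1.46 ± 0.27, and Zm00001d016294, described as PYL2, fell by 1.21 ± 0.23. The group means of Zm00001d010445 rose mainly in Y478, from 4.63 to 23.8 FPKM without ABA and from 3.35 to 25.3 FPKM with it. In Y7-1 they were 17.1 FPKM under control and 24.2 FPKM under drought without ABA. With ABA they were 25.7 FPKM (SD 31.0) and 22.8 FPKM. Between the lines 2 receptors were higher and 3 lower in Y7-1 (55.6%, beside 48.9% of all tested genes). The lowest p was that of Zm00001d016105 (PYL9), at -1.76 ± 0.18. Zm00001d037719, also described as PYL9, was higher in Y7-1, at 0.36 ± 0.09. Of 87 tested genes of the PP2C family, of which only some act on SnRK2 kinases, 24 rose and 12 fell under drought (41.4%). Zm00001d028574, described as Protein phosphatase 2C 37, rose by 2.87 ± 0.29. Among 9 SnRK2 kinases 4 rose and 1 fell (55.6%). Zm00001d042695 (SnRK2 serine threonine protein kinase 4) rose by 1.90 ± 0.16. In the line average 1 of the 9 was higher and 4 were lower in Y7-1 (55.6%), and 14 of the 87 PP2C genes were higher and 30 lower (50.6%), beside 48.9% of all tested genes.

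Proteins that bind ABI5 in Arabidopsis, or lower its level, include the Ninja family and the ubiquitin ligase KEG. Of 8 such genes tested, 3 rose and 0 fell in the drought average (37.5%, beside 27.9% of all tested genes). Ninja-family protein 5 (Zm00001d022069) rose by 2.36 ± 0.21 and Ninja-family protein 6 (Zm00001d047290) by 1.23 ± 0.19. Both were lower in Y7-1 than in Y478, at -0.90 ± 0.21 and -1.69 ± 0.19, and 0 of the 8 were higher and 4 lower in the line average (50%, beside 48.9% of all tested genes). Genes of ABA synthesis gave 4 higher and 1 lower of 17 under drought (29.4%, near the share of all tested genes), with viviparous14 (Zm00001d033222), which encodes a carotenoid-cleaving enzyme of that route, up by 2.74 ± 0.25. Of the 5 tested 8'-hydroxylases that break ABA down, 0 rose and 1 fell (20%). Of the 24 tested genes in the name group of the B3-domain factors ABI3 and VP1, 4 rose and 1 fell (20.8%).

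Downstream, 26 of 47 tested dehydrin, LEA and Em genes rose and 1 fell in the drought average, with a median of 0.59 (57.4% passed, beside 27.9% of all tested genes). Dehydrin1 (Zm00001d037894) rose by 5.42 ± 0.38. Between the lines 5 of the 47 were higher and 23 lower in Y7-1, with a median of -0.31 (59.6%, beside 48.9% of all tested genes), and Dehydrin COR410 (Zm00001d017547) was at -2.88 ± 0.37. Of 9 stress ripening (ASR) genes, 5 rose and 0 fell under drought (55.6%), and 5 were higher and 1 lower in Y7-1 (66.7%). In the average of ABA against none, 0 genes passed in limma in any of these lists.

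Across the 24 libraries, the genes whose log2(FPKM + 0.5) ran most closely with each member were named by their Pearson correlation, as a description over 20295 tested genes with a description. The libraries share lines and treatments, and so do the correlations. For bZIP4 they were Zm00001d049597, an external alternative NAD(P)H-ubiquinone oxidoreductase of mitochondria (r = 0.949), calcineurin B-like1 (Zm00001d029976, r = 0.941) and the glycosyltransferase Zm00001d040067 (r = 0.940). For bZIP49 they were phospholipase D2 (Zm00001d008727, r = 0.908), Zm00001d044301, described as protein phosphatase 2C ABI2 (r = 0.884), and the S-adenosylmethionine synthase Zm00001d024754 (r = 0.876). For Zm00001d020711 the closest was Zm00001d015649 (r = 0.851), and for ABI5 it was Zm00001d037977 (r = 0.892), whose median was 0.377 FPKM. Between members r was 0.597 for bZIP4 and bZIP49, 0.504 for bZIP4 and ABI5 and -0.450 for bZIP4 and Zm00001d020711.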

How the data were processed

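RNA of the second fully expanded leaf of 24 plants was sequenced, and the labels gave each library its line, treatment and replicate. The table deposited by the authors holds FPKM values of 46430 genes in 24 columns, beside annotation columns. They prepared NEBNext Ultra libraries, sequenced them on an Illumina NovaSeq and used the Novomagic platform, and the submitters' notes name HISAT2 2.0.5. The labels name a mouse genome build, a retina extract and another library kit, none of which fits maize leaves, and the build of the table's coordinates is not given in the sources used here. The counter and the FPKM tool are not given either, so sharing of reads between similar genes cannot be judged. No gene of the table overlaps a member.

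FPKM times gene length came out within 0.05 of a whole multiple of 1 step for 100% of values, which gave whole reads. Genes with at least 0.5 FPKM in at least 3 of 24 libraries (23978) were fitted as log2(FPKM + 0.5) with limma 3.58.1 in R 4.3.3 (8 group means, eBayes with a trend, two-sided, Benjamini-Hochberg over all tested genes). A gene passed at an adjusted p under 0.05. Replicates are separate plants, and with 3 against 3 an exact permutation test of 1 gene cannot go below p = 0.1, so permutations were run for the averages only, within 4 strata. The fit was tested on simulated data. Python 3.11.15, pandas 2.3.3, numpy 2.4.6 and matplotlib 3.10.9 made tables and figures. Alternatives were pseudocounts of 0.1 and 1, no filter, a filter at 1 FPKM, fits of only the compared groups, array weights, limma-voom on the recovered reads, median-ratio scaling, the replicate number as a block and leaving out each library. The recovered reads are an alternative and not the main unit, and limma-voom was given the implied library sizes. Median-ratio factors of the values were 0.9968 to 1.0038, so that scaling could move little.

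Members and gene lists were chosen with earlier results of these data known. Genes named beside the members were the 3 with the highest correlation with each member, and, for each list, up to 2 that passed with the smallest p in the drought average and in the line average, of which some are left out. Other ABI5-like genes and Zm00001d025589 were named after their values were seen. List members were found by words in the table's annotation. Pairs of libraries within a group differed by a chi-square of 16.47 to 199.3 per degree of freedom, so no library was a copy of another of its group. Pairs from different groups were not compared in this way. No sequence of these genes was read here.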

Additional observations from a re-analysis of the deposited data

Results flagged for a closer look

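The response of bZIP49 to the ABA spray under moderate drought stood out because the ranges with and without ABA were separate in each line, with opposite directions. Plants with and without ABA were different individuals. The 3 Y7-1 plants with ABA were at 10.8 to 11.5 FPKM, against 8.57 to 10.2 FPKM in the 3 without it. Of these, 8.57 FPKM is the library that went against its label. The 3 Y478 plants with ABA were at 9.85 to 11.3 FPKM, against 11.8 to 17.3 FPKM in the 3 without it. The difference between the lines in this response, Y7-1 minus Y478, was 0.68 on the log2 scale with an interval from -0.19 to 1.56 and did not pass (adjusted p = 0.579, limma). It was 0.62 when the Y7-1 drought library that went against its label was left out.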

How the results depend on the processing

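In the averages, the calls of bZIP4, ABI5 and Zm00001d020711 between the lines and of bZIP4 and bZIP49 under drought held under every alternative run. With array weights ABI5 also passed in the drought average, at -0.54 (adjusted p = 0.00798, limma), so that 3 members did. Counts of members that passed in single comparisons changed more often. With array weights they were 2 for drought in Y478, 2 for drought with ABA in Y7-1, 4 for drought with ABA in Y478, 1 for ABA at control moisture in Y7-1, 2 for the same in Y478, 1 for the lines under control, 1 for the lines under moderate drought, 1 for the average of ABA, and 1 each for the line difference in the average ABA response, the drought response with and without ABA, and the single interactions of line with drought under ABA and of line with ABA at control moisture. A pseudocount of 0.1 or no filter gave 0 for drought in Y478 and 1 for drought with ABA in Y478, and no filter gave 1 for the lines under control-exogenous ABA. Fitting only the compared groups gave 0 for drought with ABA in Y7-1, 1 for the same in Y478, 1 for the lines under control and 1 under control-exogenous ABA. limma-voom gave 1 for drought with ABA in Y478 and turned the ABA average of ABI5 to -0.012, beside 0.27.

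With 1 library left out, the counts ran from 0 to 1 for drought in Y478, 1 to 2 for drought with ABA in Y7-1, 0 to 3 for the same in Y478, 0 to 1 for ABA at control moisture in Y7-1, 0 to 1 for the lines under control, 1 to 3 under control-exogenous ABA, 0 to 1 under moderate drought, 1 to 3 under moderate drought-exogenous ABA, 0 to 1 for the average of ABA and 0 to 1 for the drought response with and without ABA. The counts ran from 2 to 3 for the drought average and from 3 to 4 for the line average. The call of bZIP49 for drought in Y478 was lost without any of the 6 libraries but Y478 moderate drought replicate 3. That of bZIP4 between the lines under control-exogenous ABA was lost without any of the 6 but Y7-1 replicate 1, and under moderate drought-exogenous ABA without replicate 1 of either line. That of ABI5 under moderate drought-exogenous ABA was lost without Y7-1 replicate 1 or 2 or Y478 replicate 1 or 3. For drought with ABA in Y478, that of bZIP49 was lost without 3 libraries and that of ABI5 without 5. bZIP49 was called between the lines in the average, at -0.28, and for ABA in the average, at -0.55, without Y7-1 control-exogenous ABA replicate 1. Signs changed for values that had not passed: bZIP4 ran from -0.083 to 1.113 for drought in Y7-1, from -0.14 to 1.05 for ABA under drought in Y7-1 and from -0.092 to 0.243 in the ABA average, and ABI5 ran from -0.91 to 0.04 between the lines under moderate drought. The cause was not tested.

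The replicate numbers do not pair the samples, since deviations of libraries with the same number correlated at -0.238 to 0.318 (median 0.001). With the number as a block the line average of bZIP4 was -1.58, and no call of a member changed. ABI5 rests on 0 to 82 reads per library, so smaller differences were not detectable at this depth.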

Other observations

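The 10 tested genes nearest to each member on its chromosome, 5 on each side, were looked up in the line average after their values had been seen. In that average 48.9% of all tested genes passed. Around bZIP4, 2 were higher and 3 lower in Y7-1, and the lowest was Zm00001d018161, a chloroplast nitrite reductase gene, at -2.07 (adjusted p = 0.00135, limma). Around Zm00001d020711, 1 was higher and 2 were lower. The genes on either side of it, Zm00001d020708, described as a remorin family protein, and Zm00001d020713, were at -1.67 (adjusted p = 2.14e-05, limma) and -1.27 (adjusted p = 0.000197, limma), while the gene between them was at 0.58. Around bZIP49, 1 was higher and 0 were lower, and around ABI5, 3 were higher and 0 lower. The tested genes on either side of ABI5 were Zm00001d042778, at 0.43 (adjusted p = 0.00646, limma), and Zm00001d042780, at -0.34 (adjusted p = 0.156, limma). ABI5 was at -1.15.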
